A study of Mus musculus with 3 samples.

Results

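The genes described here are 40 genes of macrophages and other myeloid cells, measured in the developing mouse ureter, the tube of epithelium and smooth muscle that drains the kidney into the bladder. They were chosen by symbol, and a gene was measured when at least 1 probe set carried that symbol and no other. Of the 40 genes, 39 were measured, among 18194 named genes in all. Lyn, which encodes a Src-family kinase, was not analysed here. The samples form 1 group of 3 wild-type FVB/N mouse embryonic ureters at embryonic day 15 (Theiler stage 23), called replicates 3, 8 and 9 after their labels. Each ureter was cut out from renal pelvis to bladder and not pooled, and its RNA was amplified in 2 rounds and hybridised to an Affymetrix Mouse Genome 430 2.0 array, and the embryos' sex is given as unknown. Whether the ureters are from different embryos or litters is not given in the labels, and part of their spread may be technical. With 1 group there was no test to make: the values below are levels, their spread over 3 arrays and counts set beside the same counts over all named genes.

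Macrophages are phagocytes that settle in nearly every tissue of the embryo, at first from yolk sac and fetal liver progenitors. They depend on the receptor CSF1R and its ligands CSF1 and IL-34, and their identity is set by transcription factors such as PU.1. In developing organs they clear dying cells, sense immune complexes through Fc receptors and signal through adaptors that carry the motif known as ITAM, to which the kinase SYK binds.

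A level is the signal of the probe set with the highest mean for that gene, in the array's linear units. Signals of different probe sets cannot be ranked as transcript abundance, so comparisons below are between arrays, for 1 gene or 1 list at a time. A gene was called above background when it exceeded, on every array, the 95th percentile of 55 background genes known from other tissues, among them testis, lens and retina. In the order of replicates 3, 8 and 9, that threshold lay at signals of 417, 413 and 566, and the median over all probe sets at 234, 198 and 273. Genes of the ureter itself were above it on every array. The T-box gene Tbx18 of the ureteric mesenchyme had signals of 7828, 20079 and 7442 in replicates 3, 8 and 9, and the smooth muscle actin gene Acta2 32411, 27441 and 35288. The epithelial keratin gene Krt8 had 20340.4, 23741 and 17646, and Foxa1, an epithelial transcription factor gene, had 3650, 7188 and 5066. The urothelial gene Upk1b had 2544, 1816 and 938.

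Some of the macrophage and myeloid genes were above background in all 3 ureters, but not clearly more often than genes at large. Of 39 measured members, 23 (59%) were above background on every array, against 52.3% of 18139 named genes, so the share of members was close to that of genes at large. At least 2 arrays were above the threshold for 25 members (64.1%, against 57.3% of genes) and at least 1 array for 29 (74.4%, against 62.2%), which leaves 10 members above it on none. The direction of that difference depended on the threshold. With the 99th percentile, 13 of 39 members were above it (33.3%), fewer than the 42% of all genes, and those no longer above it were C1qb, Cd53, Cd68, Fcgr2b, Fcgr3, Irf8, Ms4a7, Ptprc, Rac2 and Tyrobp. Among the 11 genes taken as defining macrophage markers, 7 were above background (Csf1r, Adgre1, Cd68, Ptprc, Tyrobp, C1qb and Mrc1), where 52.3% of all named genes were. The other 4 were not (Spi1, C1qa, C1qc and Fcgr1). Of the 7, Cd68, Ptprc, Tyrobp and C1qb were no longer above it with the 99th percentile. In bulk tissue, fewer cells of a type and less RNA per cell cannot be told apart. The members were low together in 1 sample. Replicate 8 had the lowest signal for 19 of the 23 members above background (82.6%), against 30% of 9488 such genes.

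**Figure D1:**
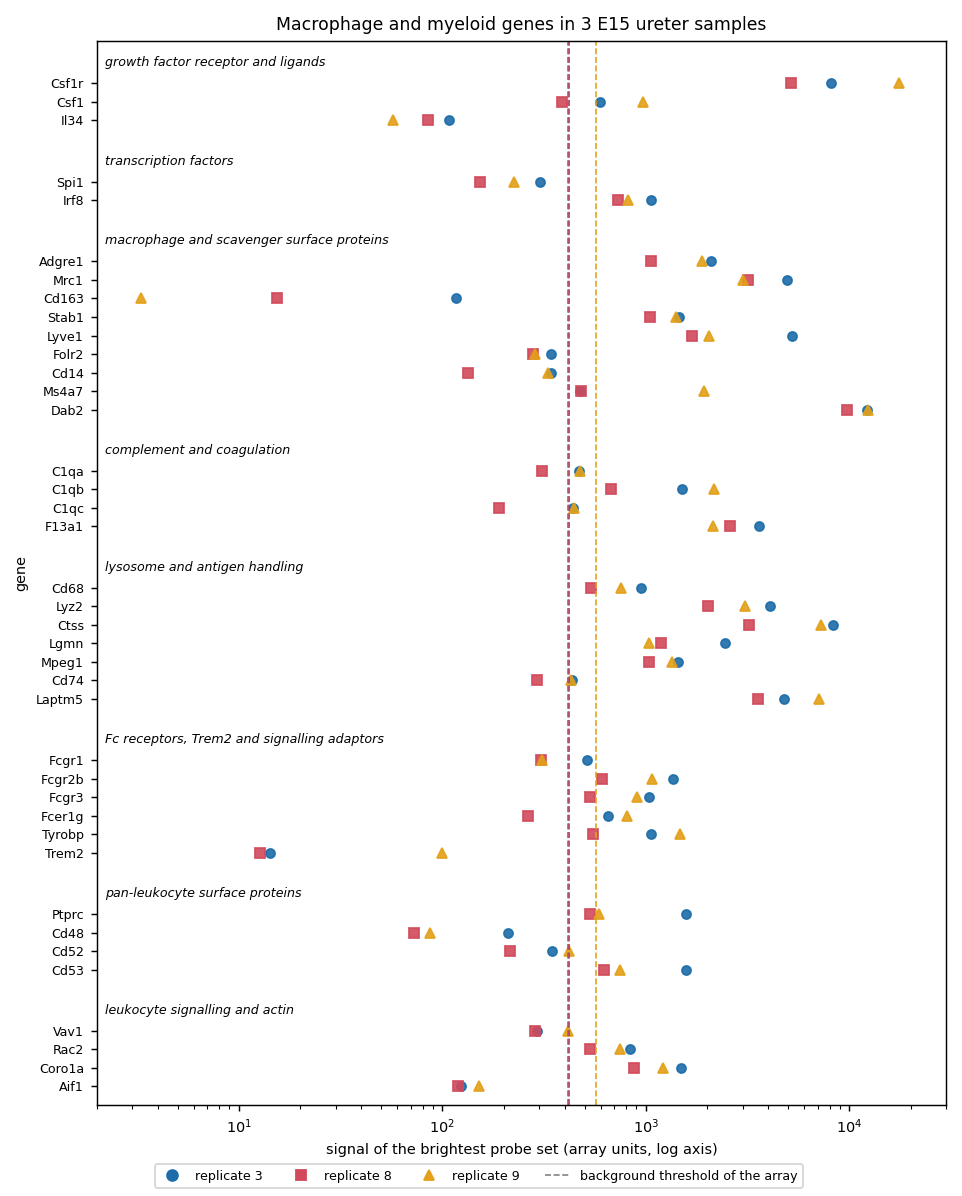
Signals of the 39 measured members, grouped by role, on a log axis in array units. Circles, squares and triangles are replicates 3, 8 and 9, and the dashed lines mark each array's background threshold (417, 413 and 566). Most squares lie to the left of the other symbols of their gene, and 23 members lie above the threshold on every array.

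The receptor of the lineage was above background, whereas its ligands were not on every array. Csf1r, which encodes the receptor that macrophages need for survival, had signals of 8111, 5183 and 17559 in replicates 3, 8 and 9 (mean 10284 ± 6468, SD, n = 3). The highest signal was thus 3.39 times the lowest, a range of 1.76 on the log2 scale. Another probe set of Csf1r, also above background, gave 1605, 956 and 3189, with the same order of the arrays. The last of its 3 probe sets gave 591, 222 and 567 and was below the threshold in replicate 8. Replicate 8 was the lowest with each of them, but the order of replicates 3 and 9 was not the same. The ligand gene Csf1 had signals of 598, 386 and 973 and fell short of the threshold in replicate 8, by 0.10 on the log2 scale. That makes it the member nearest to the threshold from below. The gene of the other ligand, Il34, was below the threshold on every array, at 108, 85.2 and 57.4. For Il34 replicate 9, not replicate 8, was lowest.

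Of the transcription factor genes, Irf8 was above background and Spi1 was not. Irf8, which encodes a factor of monocyte and macrophage development, had signals of 1056, 730.4 and 821, a range of 0.53 (log2). Its other probe set, at 350, 113 and 291, was below the threshold on every array and varied more. Spi1, the gene of PU.1, had signals of 303, 154 and 224 from its only probe set, below the threshold on every array. A signal below the threshold does not show that the transcript was absent. Both genes were lowest in replicate 8.

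PU.1 binds purine-rich DNA with the core GAGGAA, and promoters of members are shown here for matches to that core. RefSeq promoter windows (build GRCm38.p6, 250 bases before to 50 after a gene's start) were matched for 28 of the 40 members, in 37 windows. Windows of 1 chromosome, which holds Csf1r, Cd14 and Cd74, were left out of the search, for members and for all genes alike. The letters GAGGAA, searched on both strands, were found in 20 of the 37 windows (54.1%), against 28.3% of 32851 windows of all genes. By gene, 17 of 28 members (60.7%) had a match in a window, against 31.3% of 27025 genes. For the AP-1 motif TGANTCA the shares were 10.8% of member windows and 7.81% of all windows. These are matches of letters in a window, with no test, and windows of 1 gene can overlap. The 5 windows of members above background with at least 2 matches, chosen after the matches were counted, are printed 5′ to 3′, with the match in capitals, as GAGGAA or as its reverse complement TTCCTC. Mrc1 (the mannose receptor, chr2:14229164-14229463, plus strand) has 3 matches. Ctss (cathepsin S, chr3:95526536-95526835, plus strand), Cd53 (a tetraspanin of leukocytes, chr3:106790100-106790399, minus strand), Cd68 (a lysosomal glycoprotein, chr11:69666121-69666420, minus strand) and F13a1 (coagulation factor XIII A, chr13:37050195-37050494, minus strand) have 2 each.
Mrc1: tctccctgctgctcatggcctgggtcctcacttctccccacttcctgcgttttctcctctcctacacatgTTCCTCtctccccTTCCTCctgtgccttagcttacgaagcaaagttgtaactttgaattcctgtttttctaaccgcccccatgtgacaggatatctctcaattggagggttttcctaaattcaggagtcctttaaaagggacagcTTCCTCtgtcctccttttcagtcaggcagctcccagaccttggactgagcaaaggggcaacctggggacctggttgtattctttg
Ctss: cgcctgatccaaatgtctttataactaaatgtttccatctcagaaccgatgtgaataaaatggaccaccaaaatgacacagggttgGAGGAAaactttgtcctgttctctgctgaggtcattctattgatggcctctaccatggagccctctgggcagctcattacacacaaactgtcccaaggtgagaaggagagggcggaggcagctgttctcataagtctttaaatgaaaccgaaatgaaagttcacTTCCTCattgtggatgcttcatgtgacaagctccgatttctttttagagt
Cd53: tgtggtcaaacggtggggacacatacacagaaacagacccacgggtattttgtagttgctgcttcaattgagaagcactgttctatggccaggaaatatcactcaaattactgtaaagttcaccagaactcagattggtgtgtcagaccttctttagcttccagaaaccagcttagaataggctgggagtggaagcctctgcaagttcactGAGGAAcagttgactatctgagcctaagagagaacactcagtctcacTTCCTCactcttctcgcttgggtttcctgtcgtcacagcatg
Cd68: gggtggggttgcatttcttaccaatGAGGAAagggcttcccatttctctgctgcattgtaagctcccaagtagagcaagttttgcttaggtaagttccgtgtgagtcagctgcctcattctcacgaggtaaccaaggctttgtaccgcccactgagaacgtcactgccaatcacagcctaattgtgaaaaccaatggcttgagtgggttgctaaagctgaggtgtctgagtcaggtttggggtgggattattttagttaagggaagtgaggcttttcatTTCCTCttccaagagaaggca
F13a1: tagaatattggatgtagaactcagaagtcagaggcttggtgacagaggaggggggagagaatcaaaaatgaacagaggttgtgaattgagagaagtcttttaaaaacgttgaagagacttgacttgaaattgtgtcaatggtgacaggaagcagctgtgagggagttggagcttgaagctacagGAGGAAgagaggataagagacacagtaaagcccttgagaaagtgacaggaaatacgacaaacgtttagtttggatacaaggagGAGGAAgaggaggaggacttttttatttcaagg

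Of the 9 genes grouped here as macrophage and scavenger surface proteins, 6 were above background, where 52.3% of all named genes were. Among the 6 is Dab2, which encodes an endocytic adaptor, not a surface protein. Adgre1, which encodes the macrophage marker F4/80, had signals of 2080.2, 1063 and 1894 in replicates 3, 8 and 9, with replicates 3 and 9 close together and replicate 8 lower (mean 1679 ± 542, SD, n = 3). Mrc1, the gene of the mannose receptor, had 4945, 3173 and 3015, and here replicate 3 stood above the other arrays, which differed little. Stab1, a scavenger receptor gene, had 1450.4, 1048 and 1401. Its range of 0.47 (log2) was among the smaller ones in the set. Lyve1, which encodes a hyaluronan receptor of lymphatic endothelium and of some tissue macrophages, had 5249.6, 1681 and 2054 (mean 2995 ± 1962, SD, n = 3). Replicate 3 was 3.12 times replicate 8, and its dimmer probe set, with 418, 124 and 422, was also lowest in replicate 8 but not higher in replicate 3 than in replicate 9. Ms4a7, a gene of a tetraspan protein found in macrophages, had 477, 481 and 1932. It had the widest range of the 23 members (2.02 on the log2 scale), with replicates 3 and 8 nearly equal and replicate 9 high. Its other probe set was below the threshold on every array, at 67.8, 53.2 and 90.

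Dab2 encodes an endocytic adaptor that many cell types use besides macrophages. Its probe set with the highest mean had signals of 12195, 9759.7 and 12421, the narrowest range of the 23 members (0.35). A second probe set above background gave 11264, 12108 and 5902, so the probe sets disagreed on the order of the arrays, and replicate 8 was the lowest by one and the highest by the other. The folate receptor gene Folr2 (342, 279.5 and 285) and the lipopolysaccharide co-receptor gene Cd14 (340.2, 134 and 331) were below the threshold on every array. Cd163, the gene of the haemoglobin scavenger receptor, had 117, 15.3 and 3.3, also below it on every array.

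Complement C1q is built from 3 chains, A, B and C, whose genes C1qa, C1qc and C1qb are neighbours on mouse chromosome 4, and macrophages are a main source of it. C1qb was above background, with signals of 1506, 672 and 2162 in replicates 3, 8 and 9 (mean 1447 ± 747, SD, n = 3). Replicate 8 was −0.98 (log2) from the gene's mean after centring on the array, the largest negative deviation in that sample among the 23 members. Both C1qb probe sets above background end in _x_at, a suffix that marks probes shared with other sequences. The second of them gave 1644, 554 and 1614, and the probe set without that suffix 753, 308 and 502, lowest in replicate 8 as well. C1qa had 471, 309 and 476 and C1qc 439, 189.8 and 445, both above the threshold in replicate 3 alone. For C1qa and C1qc replicates 3 and 9 were nearly equal and replicate 8 was lower. F13a1, which encodes the A subunit of coagulation factor XIII and marks a subset of tissue macrophages, had 3610.4, 2606 and 2135. It was one of 4 members above background, with Mrc1, Lgmn and Ms4a7, that were not lowest in replicate 8.

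Genes of the lysosome and antigen handling were above background for 6 of 7 members, where 52.3% of all named genes were. Lyz2, the lysozyme gene of myeloid cells, had signals of 4095, 2021 and 3089 in replicates 3, 8 and 9. Ctss, which encodes a protease that trims the invariant chain, had 8346, 3202 and 7227 (mean 6259 ± 2705, SD, n = 3), replicate 3 being 2.61 times replicate 8. Both genes were highest in replicate 3 and lowest in replicate 8. Lgmn, the gene of the asparaginyl protease legumain, had 2462, 1184 and 1033, and Cd68 had 952, 537 and 753. Mpeg1, which encodes the pore-forming protein perforin-2, had 1445, 1041 and 1343, a range of only 0.47. Lgmn thus had 1 high sample, replicate 3, while Mpeg1 was almost level across the samples. Laptm5, a lysosomal membrane protein gene of blood cells, had 4756, 3560 and 7107, and a dimmer probe set above background had 1151, 758 and 1242. The arrays stood in the same order with both, replicate 9 highest and replicate 8 lowest. The brighter of them ends in _x_at, as those of C1qb do. Laptm5 had 5 probe sets, and the remaining ones were below the threshold on every array. They were also lowest in replicate 8, but highest in replicate 3. Cd74, the invariant chain gene of MHC class II presentation, had 436, 291 and 427 and passed the threshold in replicate 3 alone.

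Fc receptors bind antibody, and their activating forms need the ITAM adaptor encoded by Fcer1g. The inhibitory receptor gene Fcgr2b had signals of 1359.5, 610.4 and 1075 in replicates 3, 8 and 9, and the activating receptor gene Fcgr3 had 1035, 531 and 904. Both were above background and in the same order, replicate 3 highest and replicate 8 lowest. The receptors encoded by these genes are close relatives, and whether their probe sets pick up each other's transcripts was not tested. Fcgr2b had 5 probe sets, of which the other 4 were not above background on every array. The high-affinity receptor gene Fcgr1 (514, 306 and 309.5) passed the threshold in replicate 3 alone. Tyrobp, which encodes the ITAM adaptor DAP12, had 1064, 549 and 1481, a range of 1.43 (log2). Fcer1g had 655, 265 and 810.4, below the threshold in replicate 8 only. The 2 adaptor genes shared their order, replicate 9 highest and replicate 8 lowest. Trem2, a lipid-sensing receptor gene whose product signals through DAP12, was below the threshold on every array (14.2, 12.7 and 99.8).

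Genes that most leukocytes share were partly above background. Ptprc, the gene of the leukocyte common antigen CD45, had 1571, 533 and 592 in replicates 3, 8 and 9. Cd53 had 1578, 623 and 744. Both had 1 high array, replicate 3, at 2.95 and 2.53 times replicate 8, and Ptprc was the member nearest to the threshold from above, by 0.06 (log2) in replicate 9. Cd48 (209.9, 72.5 and 87.3), a ligand of lymphocyte receptors, and Cd52 (344, 216 and 421), a small glycoprotein gene of leukocytes, were below the threshold on every array. Of the genes of leukocyte signalling and actin, Rac2, which encodes a GTPase of blood cells, had 840.3, 531 and 748, and Coro1a, which encodes an actin regulator, had 1487, 875 and 1208. Both were above background and lowest in replicate 8, but the second Coro1a probe set above background, at 1394, 962 and 692, was lowest in replicate 9. The exchange factor gene Vav1 (292, 284 and 414) and Aif1 (124, 119 and 151), the gene of the macrophage protein IBA1, were below the threshold on every array.

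**Figure D2:**
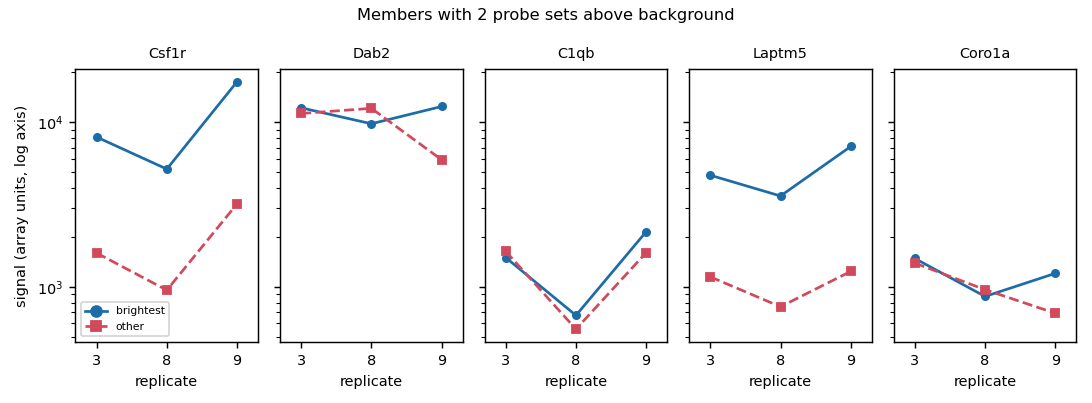
Signals in replicates 3, 8 and 9 (horizontal axis) of the 5 members with 2 probe sets above background, on a log axis in array units. Solid blue lines are the probe set with the highest mean, dashed red lines the other one. For Csf1r, C1qb and Laptm5 both lines dip at replicate 8, for Dab2 and Coro1a only the solid one does.

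How far the samples differed was then set beside the genes at large. Among the 23 members above background, the median range over the 3 arrays was 1.00 on the log2 scale, against 0.53 over the 9488 named genes above background. A range of at least 1 was found for 11 of 23 members (47.8%), against 13.9% of those genes. The 11 were Lyz2, Fcgr2b, Lgmn, Cd53, Ctss, Tyrobp, Ptprc, Lyve1, C1qb, Csf1r and Ms4a7. Their ranges went from 1.02 to 2.02. The members with narrow ranges were Dab2, Stab1 (0.47), Mpeg1 (0.47) and Irf8 (0.53). These ranges are of the probe set with the highest mean, and the other probe sets of Dab2 and Irf8 varied more. Without replicate 3, a range of at least 1 was found for 5 of 23 members (21.7%, against 6.34% of all genes above background on the other arrays). Without replicate 8 it was found for 6 of 25 (24%, against 7.37%), and without replicate 9 for 8 of 23 (34.8%, against 6.3%). The members above background lay at lower signals than all such genes (median log2 level 10.33 against 11.57), and whether dimmer genes vary more on these arrays was not tested.

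**Figure D3:**
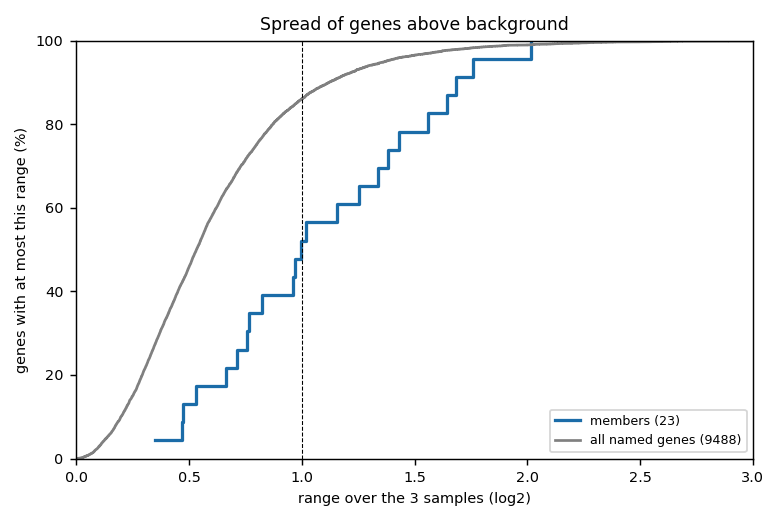
Cumulative share of genes (vertical axis, %) by their range over the 3 samples (horizontal axis, log2), for the 23 members above background (blue) and all 9488 named genes above background (grey). The dashed line marks a range of 1, which 47.8% of members and 13.9% of all genes reached.

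To compare the samples, each gene's deviation from its own 3-array mean was taken on the log2 scale and centred on the median deviation of all genes above background on that array. In replicates 3, 8 and 9 the 23 members had median deviations of 0.36, −0.56 and 0.14, where all genes have a median of 0 by construction. In replicate 8 the members spread from −0.98 (C1qb) to −0.09 (F13a1), so that all 23 lay below 0, against 50% of all genes. The middle 50% of all genes lay between −0.19 and 0.18 there. In replicate 3, members lay between −0.68 (Ms4a7) and 0.99 (Lyve1), and in replicate 9 between −0.45 (Lgmn) and 1.37 (Ms4a7). The low values of replicate 8 were thus shared by the members, while replicates 3 and 9 each had their own high genes. Replicate 3 was highest for 17 of 23 members (73.9%, against 32.6% of all genes above background), among them Ptprc, Cd53, Lyve1, Lgmn, Ctss and Lyz2. Replicate 9 was highest for the other 6 (26.1%, against 31.6%), namely Csf1r, Ms4a7, Dab2, C1qb, Laptm5 and Tyrobp. These orders are of the probe set with the highest mean. By a second probe set above background, C1qb was highest in replicate 3 and Dab2 in replicate 8. Csf1r and Laptm5 were highest in replicate 9 by their second one too. Replicate 8 was highest for 0 of 23, against 35.8%. The 4 members not lowest in replicate 8 were Ms4a7, lowest in replicate 3 (1 of 23, 4.35%, against 30.8%), and Mrc1, F13a1 and Lgmn, lowest in replicate 9 (3 of 23, 13%, against 39.2%). Of the 16 members not above background, 14 were lowest in replicate 8, and the share over all genes not above background was not computed. That share lies above 37%, since replicate 8 was lowest for 30% of genes above background and 37% of all named genes. Over all 39 members this made 33 (84.6%), against 37% of 18139 named genes. Replicate 9 was lowest for 5 of the 39 (12.8%, against 34.4%) and replicate 3 for 1 (2.56%, against 28.5%). The members were chosen with earlier results of these arrays known.

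**Figure D4:**
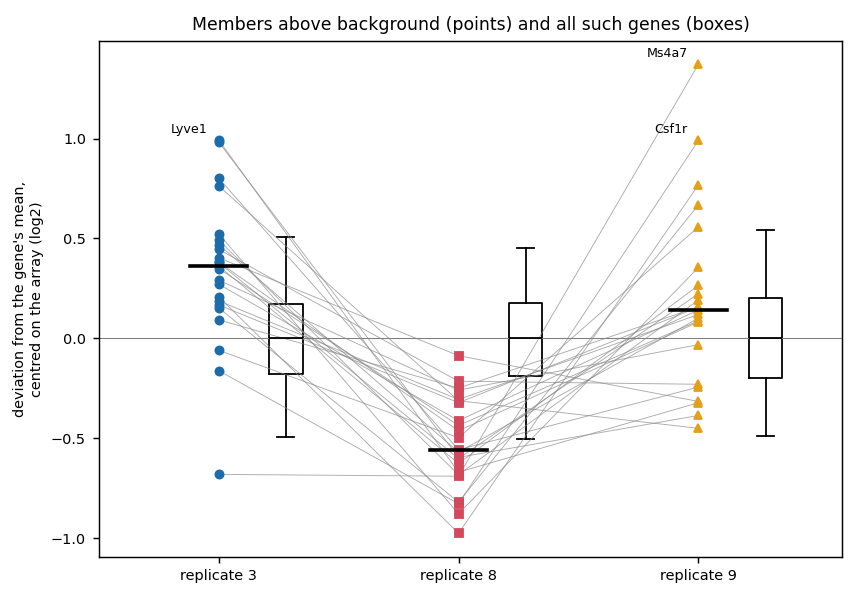
Centred deviation from each gene's mean (vertical axis, log2) in replicates 3, 8 and 9. Points are the 23 members above background, joined by grey lines, with their median as a black bar (0.36, −0.56 and 0.14), and boxes show the quartiles of all 9488 named genes above background with whiskers to their 5th and 95th percentiles. All member points in replicate 8 lie below 0.

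Other genes of the same cells were taken from lists of their own. For this list and those that follow, the shares over all named genes were 52.3% above background and, of those, 30% lowest in replicate 8. Of 22 measured further macrophage genes, 9 were above background, with a median deviation of 0.17, −0.23 and 0.07 in replicates 3, 8 and 9, and 6 of the 9 were lowest in replicate 8. Ctsb, the cathepsin B gene, had signals of 22699.8, 10349 and 20386, Maf, a transcription factor gene, 4355, 4146 and 5318, and Ctsd, the cathepsin D gene, 4941, 4668 and 4797. These are also used by other cell types, and Maf and Ctsd varied little. The fractalkine receptor gene Cx3cr1, at 1269, 281 and 1523, missed the threshold in replicate 8 alone. The integrin gene Itgam (83.4, 24.6 and 17.5), the oxidase subunit gene Cybb (296, 103 and 152) and the complement receptor gene C5ar1 (80.6, 73.9 and 82.5) were below it on every array. Of 15 genes that act downstream of CSF1R and the ITAM adaptors, 9 were above background, with median deviations of −0.09, −0.14 and 0.17. They included the ubiquitin ligase gene Cbl (3187, 4949 and 3092) and the adaptor gene Grb2 (4156, 2899 and 3069.8), which most cells use, and Pik3ap1 (3304, 1170.2 and 1588), an adaptor gene of blood cells. Pik3ap1 had its high array in replicate 3, as Ptprc and Cd53 did, whereas Cbl was highest in replicate 8. The kinase gene Syk was nearly level, at 852, 833 and 1031. The kinase gene Btk, at 1284, 495 and 471, missed the threshold in replicate 9. Of 14 genes of the haematopoietic cytoskeleton and signalling, 5 were above background, among them Lcp1 (2584, 1419.9 and 2309), which encodes the actin bundler L-plastin, and Ikzf1 (6188, 4162 and 4191), a transcription factor gene. The list's median deviations were 0.34, −0.22 and 0.21, but only 3 of the 5 were lowest in replicate 8. Plek (1998, 2058 and 3188) was lowest in replicate 3.

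Markers of other blood cells divided by lineage, where 52.3% of all named genes were above background and 30% of those were lowest in replicate 8. T cell genes were above background for 1 of 9, the kinase gene Zap70 (742, 480 and 2519), whereas the receptor subunit genes Cd3e (51.7, 13.4 and 23.4), Cd3g and Cd3d were below the threshold on every array. None of the 7 B cell genes and 5 natural killer cell genes passed the threshold on any array. Of 12 genes of dendritic cells and MHC class II, 1 was above background, Zbtb46, which is also used outside that lineage, and H2-Aa (285, 181 and 345) and H2-Eb1 (279, 154 and 285) were not above it on any array. Granule genes of neutrophils and their precursors were above background for 6 of 10. S100a8, a calcium-binding protein gene, had 5584, 3555 and 9973, the myeloperoxidase gene Mpo 5172, 1486 and 4003, and the granule protein gene Ngp 2011, 492 and 1869. All 6 were lowest in replicate 8, and their median deviations, 0.56, −0.92 and 0.45, ran the same way as those of the members. Of the granule genes not above background, Elane (137, 126 and 158) and Lcn2 (326, 76 and 266) passed the threshold on no array. S100a9 (698, 398 and 522) passed it on 1 array. The lists of 6 genes each for microglia and Kupffer cells, the macrophages of brain and liver, had 3 and 0 above background. The 3 microglial genes had median deviations of −0.21, −0.15 and 0.46. P2ry12 (368, 135 and 166), a receptor gene typical of microglia, was below the threshold on every array, whereas Sall1, Tmem119 and Olfml3, which are also expressed outside microglia, were above it. Cd5l, a gene of Kupffer cells, had 2984, 758 and 403, below the threshold in replicate 9. Monocyte genes were above background for 2 of 4, Plac8 (3410, 4044 and 2728) and the fibronectin gene Fn1, which fibroblasts also express, but not the chemokine receptor gene Ccr2 (293, 251 and 265). Mast cell genes were above background for 3 of 8, with median deviations of 0.39, −0.35 and −0.04. The carboxypeptidase gene Cpa3 (3498, 741 and 1244) and Kit (1283, 780 and 927) were lowest in replicate 8. The third, Gata2 (2449, 8055 and 4774), was highest there. Of the others, 4 were above the threshold on no array, among them Tpsb2, Ms4a2 and Fcer1a. Megakaryocyte genes were above background for 3 of 6, namely Itga2b, Ppbp and Pf4, the platelet factor 4 gene (3286, 3146 and 5768). These 3 were all lowest in replicate 8, with median deviations of −0.25, −0.63 and 0.59. Gp9, Gp1bb and Gp6 were above the threshold on no array.

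Lists of other tissues also moved with the samples, where 30% of all named genes above background were lowest in replicate 8. All 9 measured hepatocyte genes were above background and lowest in replicate 8, with median deviations of 0.66, −0.57 and −0.09 and summed signals of 269256, 135430 and 186228 in replicates 3, 8 and 9. The albumin gene Alb had 51919, 33690 and 44594, and the alpha-fetoprotein gene Afp 54027, 34837 and 48948. The 7 erythroid genes above background, of 8 measured, were all lowest in replicate 8 as well, with median deviations of 0.81, −0.76 and 0.13 and summed signals of 167546, 79253 and 122581. Alas2, the haem synthesis gene of red cells, had 32354, 9108 and 10292, and Slc4a1, their anion exchanger gene, 36471, 16001 and 26614. No marker of either list was at 0, but no probe set on these arrays was (lowest signals 0.21, 0.17 and 0.12), so this tells nothing about such tissue. The part of such tissue in the members' differences between samples was not tested. Blood endothelial genes did not follow this order: of 7 above background, 0 were lowest in replicate 8 (median deviations of 0.17, 0.07 and −0.25, summed signals of the 10 measured 17944, 16728 and 12979). The angiopoietin receptor gene Tek had 3988, 3332 and 1467, lowest in replicate 9. Of 4 lymphatic endothelial genes, all above background, 2 were lowest in replicate 8, and the list's median deviations were −0.15, −0.21 and 0.32. The extracellular matrix gene Reln had 14457, 4996 and 11873, the same order of the arrays as Lyve1. The membrane glycoprotein gene Pdpn (1512, 1370.1 and 1859), the receptor gene Flt4 (801, 838 and 1262) and the transcription factor gene Prox1 (979, 1339.7 and 1347) were highest in replicate 9, unlike Lyve1. Genes of fibroblasts and matrix, all 10 above background, had median deviations of 0.07, −0.11 and 0.05. The array's controls compare a probe set near the 3′ end of a transcript with one near its 5′ end. Their 3′ to 5′ signal ratios in replicates 3, 8 and 9 were 7.45, 6.50 and 4.0 for Actb, 18.9, 15.1 and 16.4 for Gapdh, and 7.67, 9.57 and 7.21 for Tfrc. Replicate 8 had the middle ratio for Actb, the lowest for Gapdh and the highest for Tfrc, and the part of RNA quality in the members' differences was not tested.

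**Figure D5:**
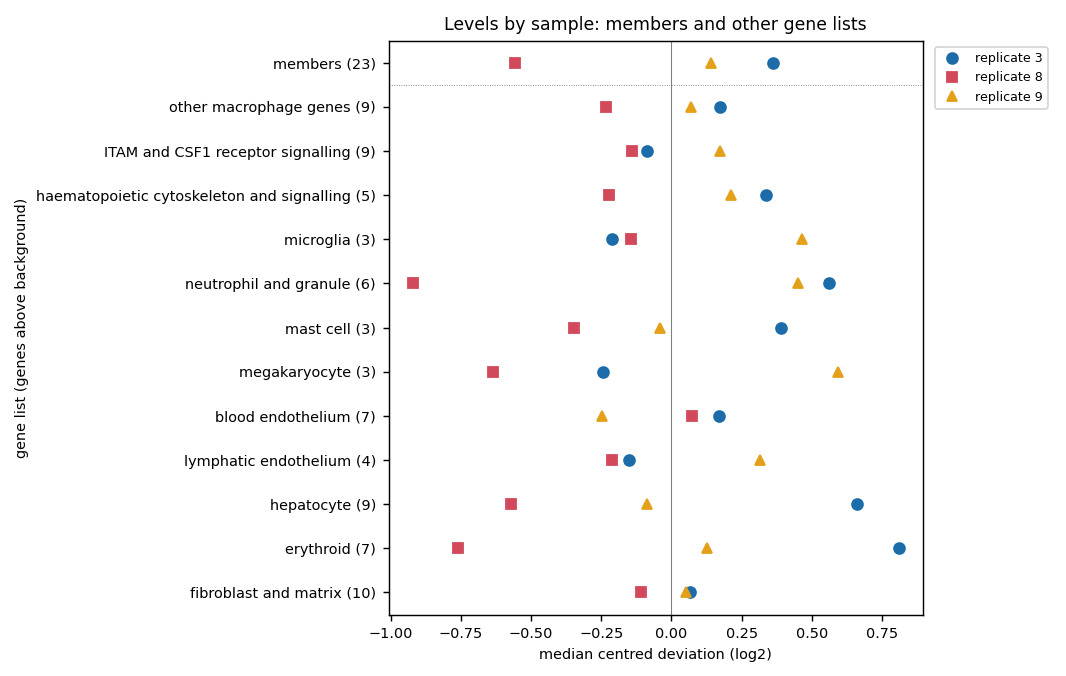
Median centred deviation (horizontal axis, log2) in replicates 3 (circles), 8 (squares) and 9 (triangles) of the members (top row) and of other gene lists with at least 3 genes above background (number in brackets). Replicate 8 is the lowest sample for the members (−0.56) and for all lists drawn except microglia, lowest in replicate 3 (−0.21), and blood endothelium, lowest in replicate 9 (−0.25).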

How the data were processed

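Total RNA of 3 ureters was amplified in 2 rounds, labelled with biotin and hybridised to 1-colour arrays, per the labels' protocols. The deposited values are linear intensities, 1 per probe set and array, and GCOS is named in the submitters' processing notes, with version and settings not given in the sources used here. Each array had the same 2% trimmed mean (1500 after rounding), so it had been scaled, while medians differed. Of 45101 probe sets, 34958 had 1 gene symbol in the platform annotation, and 34754 of them were matched by Entrez ID to RefSeq (GRCm38.p6). Levels are log2(signal + 1) of the probe set with the highest mean. Background came from 60 genes of other tissues (55 measured), at the 95th percentile on each array. Counts and levels were computed with Python 3.11.15 and pandas 2.3.3. With 1 group and 3 arrays no test was made, and the number of arrays limits the precision.

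The members and lists were chosen with earlier results of these data known. All members were described by role, with the arrays' values for those a sentence turns on, and up to 3 bright and 3 dim genes were taken from each of 18 other lists, and Syk was singled out later with its values known, as were the promoters printed (those of Spi1, C1qa and Tyrobp, chosen earlier, are not used here). Alternatives were the 90th and 99th percentile, a background list without exocrine pancreas genes, presence on at least 2 arrays, quantile normalization, averaging a gene's probe sets, no probe sets ending in _x_at or _s_at, pseudocounts of 16 and 64, no filter, no centring and leaving out each replicate. Counting after centring, and some settings for the differences between samples, were added after seeing the data.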

Additional observations from a re-analysis of the deposited data

How the results depend on the processing

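The count of members above background was 23 of 39 and ran from 13 with the 99th percentile of the background genes (33.3%, below the 42% of all genes) to 27 (69.2%) with the 90th percentile (59.6% of all genes) or without exocrine pancreas genes in that list (58.2%). Averaging each gene's probe sets gave 16 (41%, against 40.5% of all genes, without Cd53, Coro1a, Fcgr2b, Irf8, Ms4a7, Ptprc and Rac2). Dropping those with the suffix _x_at or _s_at gave 20 of 38 (52.6%, against 49.2%, without C1qb, Laptm5 and Ptprc). Without replicate 3 the count was 23 (59%, against 53.2%), without replicate 8 it was 25 (64.1%, against 52.9%), and without replicate 9 it was 23 (59%, against 55.8%). The 27 held all 23 and also C1qa, Csf1, Cd74 and Vav1. Genes of the other lists above background numbered 78 of 164 measured, where 52.3% of all named genes were. They ran from 59 with the 99th percentile (42% of all genes) to 97 with the 90th (59.6%). With 1 replicate left out they numbered 80 to 85 (52.9% to 55.8% of all genes). The count of members with a range of at least 1 was 11. It was 7 of 16 with the mean of probe sets (43.8%, against 16.1% of all genes), 18 of 39 with no filter (46.2%, against 34.5%), 5 of 13 with the 99th percentile, which tests fewer genes (38.5%, against 10.6%), and 5 to 8 with 1 replicate left out, which leaves fewer arrays. Members lowest in replicate 8 numbered 19 of 23 (30% of all genes) and 33 of 39 with no filter (37% of all genes). They numbered 10 of 13 with the 99th percentile (29.2% of all genes) and 20 of 23 after centring (33.2%). Members highest in replicate 3 numbered 17 of 23 (32.6% of all genes), 25 of 39 with no filter (38%) and 10 of 13 with the 99th percentile (33.4%). Quantile normalization left the first of these counts at 19 and the second at 17. The median deviation in replicate 8 stayed below 0, between −0.55 and −0.27, in every alternative run. Leaving out 1 replicate gave −0.42 to −0.27 in replicate 8, 0.078 to 0.42 in replicate 3 and −0.078 to 0.27 in replicate 9, each from the mean of the other arrays. The reversal to −0.078 in replicate 9 came without replicate 8. Mean levels of single members moved by over 1 SD for 0 of 39 with quantile normalization. With the mean of probe sets they moved for 14 of the 16 members with several probe sets. The direction, to a lower level, was fixed in advance, because the level otherwise comes from the probe set with the highest mean. The other 23 measured members have 1 probe set, so averaging could not move them. No paired analysis was possible because there is 1 group. Dim members such as Spi1 and Trem2 are limited by signal over background.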
